A study of Rattus norvegicus with 19 samples.

Results

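The genes of glycolysis, lactate transport and glycogen turnover were followed in rat somatosensory cortex exposed to sodium deoxycholate, albumin or TGF-β1. The list held 32 genes out of 14218 genes that a probe set of the array named alone. It ran from glucose entry (Slc2a3) and hexokinase (Hk1, Hk2) through the glycolytic enzymes and their regulators to lactate dehydrogenase, the monocarboxylate transporters, pyruvate dehydrogenase and its kinases, glycogen synthase and phosphorylase, and Hif1a. Each gene was read from its probe set with the highest mean over all 19 arrays. Of the 32 genes, 31 had such a probe set. Pkm, the pyruvate kinase gene, shared its probe set with a pseudogene and was not analysed here. Gapdh was read from an Affymetrix control probe set, because its other probe set also names a related sequence.

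Glycolysis splits glucose into pyruvate in the cytosol and yields ATP without oxygen. Phosphofructokinase sets its pace and is switched on by fructose 2,6-bisphosphate, which the bifunctional PFKFB enzymes make and break. Lactate dehydrogenase interconverts pyruvate and lactate; the A subunit is favoured in glycolytic cells and the B subunit in oxidative ones. Lactate crosses membranes through the monocarboxylate transporters MCT1 (Slc16a1), MCT2 (Slc16a7) and MCT4 (Slc16a3). In the brain MCT1 is typical of endothelium and glia, MCT2 of neurons, and MCT4 of astrocytes and of strongly glycolytic cells. The pyruvate dehydrogenase kinases (Pdk1 to Pdk4) hold pyruvate back from the mitochondria. Brain glycogen is stored mainly in astrocytes and is broken down by glycogen phosphorylase, of which cortex holds the brain (Pygb) and muscle (Pygm) forms. HIF-1, whose regulated subunit is encoded by Hif1a, induces many of these genes when oxygen is short.

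All animals were adult male Wistar rats whose somatosensory cortex was perfused with artificial cerebrospinal fluid. In set 1, a single array was run for each agent and time. The bile salt sodium deoxycholate (DOC, 2 mM), which opens the barrier between blood and brain, was followed for 7, 24 and 48 h. TGF-β1 (10 ng/ml), a cytokine, and bovine serum albumin (0.1 mM) were followed for 8, 24 and 48 h, and 1 sham-operated rat was taken at 24 h. In set 2 every sample was taken at 24 h: 3 rats received albumin (0.1 mM), 4 received albumin together with TGF-β receptor blockers, and 2 were sham-operated. Blockade used SB431542 (100 µM), which acts on the kinase of TGF-βR1, with an anti-TGF-βR2 antibody (50 µg/ml). The labels give no albumin dose for the blocker group. No sham rat received blockers, and sham samples existed at 24 h only. The design asks what opening of the barrier, albumin and TGF-β1 each do to cortical gene expression, and how far receptor blockade alters the response to albumin.

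Values are log2 probe set signals, so a difference of 1 is a ratio of 2 in signal; the levels of different genes are not comparable, because probe sets differ in brightness. The 8 neuron markers and 8 astrocyte markers were all measured above the filter, as cortex should show. The median signal of an array was 5.09 to 5.17 in set 1 but 6.05 to 6.18 in set 2, so differences were taken within a set. In set 2 the array of albumin replicate 2 was unlike the rest: over the genes tested, its correlations with them had a median of 0.935, and those of the other 8 arrays 0.970 to 0.986. For members, albumin differences from sham that moved by over 1.5 times without it are given both ways, as are those from blockers. Of markers of other cells, the mean of S100a8 and S100a9 in set 2 was 6.35 to 10.70 on albumin arrays, 4.66 to 8.06 with blockers and 3.45 to 4.76 in sham. The meningeal marker mean was 5.12 to 6.0, 6.99 to 8.88 and 9.24 to 9.34 in the same order, and 3 of its 5 tested genes fell with albumin (Ptgds, Slc13a4, Ogn). Of all genes, 1.33% passed in either direction (137 of 10330). In set 1 only 3 meningeal markers were tested, and their mean was 6.16 to 9.14 with albumin against 6.49 in sham. In tissue RNA, fewer cells of a type and less RNA per cell cannot be told apart.

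Testing required a log2 signal over 4 on 2 or more arrays of a set; 30 of the genes met this in set 2 and 29 in set 1. Hk2, the hexokinase of muscle and of induced glycolysis, was at 1.97 to 2.69 in set 2 and 2.05 to 2.09 in set 1 and was not tested. Slc16a3 was not tested in set 1. In set 2 it passed the filter through its albumin arrays only, so that once it passed it had to differ.

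With albumin at 24 h in set 2, MCT4, MCT1, PFKFB3, lactate dehydrogenase A, the liver form of phosphofructokinase and Hif1a lay above sham on every albumin array, and aldolase C lay below. Of these only the MCT4 gene passed the test, and its pass is no support for a rise, because the filter let it in through the albumin arrays. The enzymes of the lower path from Tpi1 to Eno2 differed by −0.02 to 0.25, and by −0.02 to 0.30 without albumin replicate 2. Among them, Eno1 and Eno2 also lay above sham on every albumin array. At an adjusted p under 0.05 (limma, Benjamini-Hochberg over all genes tested), 1 of the 30 genes passed, Slc16a3, against 1.33% of all genes (137 of 10330). Without adjustment, 7 of 30 were under 0.05 (23.3%), against 21.4% of all genes, a share near the background. The median difference was 0.04 for these genes and 0.02 for all genes. Albumin arrays lay wholly above sham for 12 genes and wholly below for 5, against 22.2% and 19.2% of all genes; Slc16a3, which the filter let through for this difference, is 1 of the 12.

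Slc16a3 encodes MCT4, a transporter of low affinity suited to lactate export. Its signal was 4.44, 5.24 and 5.24 on the albumin arrays, and 3.31 and 3.37 on the sham arrays. The groups did not overlap, and the sham values lay below the filter of 4, near the floor of the method, so no fold is given. The difference was 1.63 ± 0.23 (SE, n = 3 against 2) on the log2 scale. Its limma adjusted p was 0.0342 among the genes that passed the filter and 0.0533 with no filter. Without albumin replicate 2 it was 1.5 ± 0.23 (limma adjusted p = 0.0377). The call was lost without albumin replicate 3, blocker replicate 1 or 2, or either sham, at limma adjusted p values of 0.0547 to 0.312 and with only the 2 groups in the fit (0.147); the difference itself stayed between 1.5 and 1.9.

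Neutrophil genes were higher on the same 3 albumin arrays but did not pass. S100a9 differed from sham by 4.98 ± 1.32 (limma adjusted p = 0.0954) and S100a8 by 3.52 ± 1.39 (limma adjusted p = 0.201). The microglia and macrophage markers differed in both directions, from −2.38 (P2ry12) to 1.83 (Itgam), and none passed. S100a9, a granulocyte calcium-binding protein, was at 9.37, 7.82 and 11.43 with albumin, at 7.20, 5.30, 9.14 and 6.72 with blockers, and at 3.35 and 5.78 in sham. In set 1 it was at 11.02 on the albumin array at 8 h, 8.13 at 24 h and 4.9 in sham. The part of these cells in the Slc16a3 difference was not tested. The lymphocyte genes Cd3e and Cd79b were below the filter in both sets.

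The remaining transporters went in different directions. Slc16a1 (MCT1) was at 10.53, 9.98 and 10.84 with albumin and at 9.44 and 9.65 in sham. All 3 albumin arrays were above both shams, by 0.91 ± 0.26 on average (limma adjusted p = 0.113). Without albumin replicate 2 the difference was 1.14 ± 0.21 (limma adjusted p = 0.0607). Slc16a7 (MCT2), the neuronal transporter, was at 8.95, 7.04 and 8.29 against 8.88 and 9.0, so the groups overlapped. Its difference of −0.84 ± 0.58 shrank to −0.32 without albumin replicate 2. Neither gene passed the test.

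Among the regulators, Pfkfb3, the PFKFB form with the highest kinase activity, was at 9.88, 10.58 and 10.22 with albumin and 8.96 and 8.92 in sham. The difference of 1.29 ± 0.39 did not pass (limma adjusted p = 0.122). Without albumin replicate 2 it was 1.11. A second probe set of the gene, at a lower level, gave a difference of 2.19. Pfkfb2, the heart-type form, was at 5.27, 5.43 and 5.76 against 6.18 and 5.76 (−0.48 ± 0.21, limma adjusted p = 0.227). Hif1a was at 11.74, 12.84 and 12.09 against 11.41 and 11.48. Its highest value came from albumin replicate 2, and the difference of 0.78 ± 0.27 (limma adjusted p = 0.162) was 0.47 ± 0.14 without that array (limma adjusted p = 0.125).

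**Figure D1:**
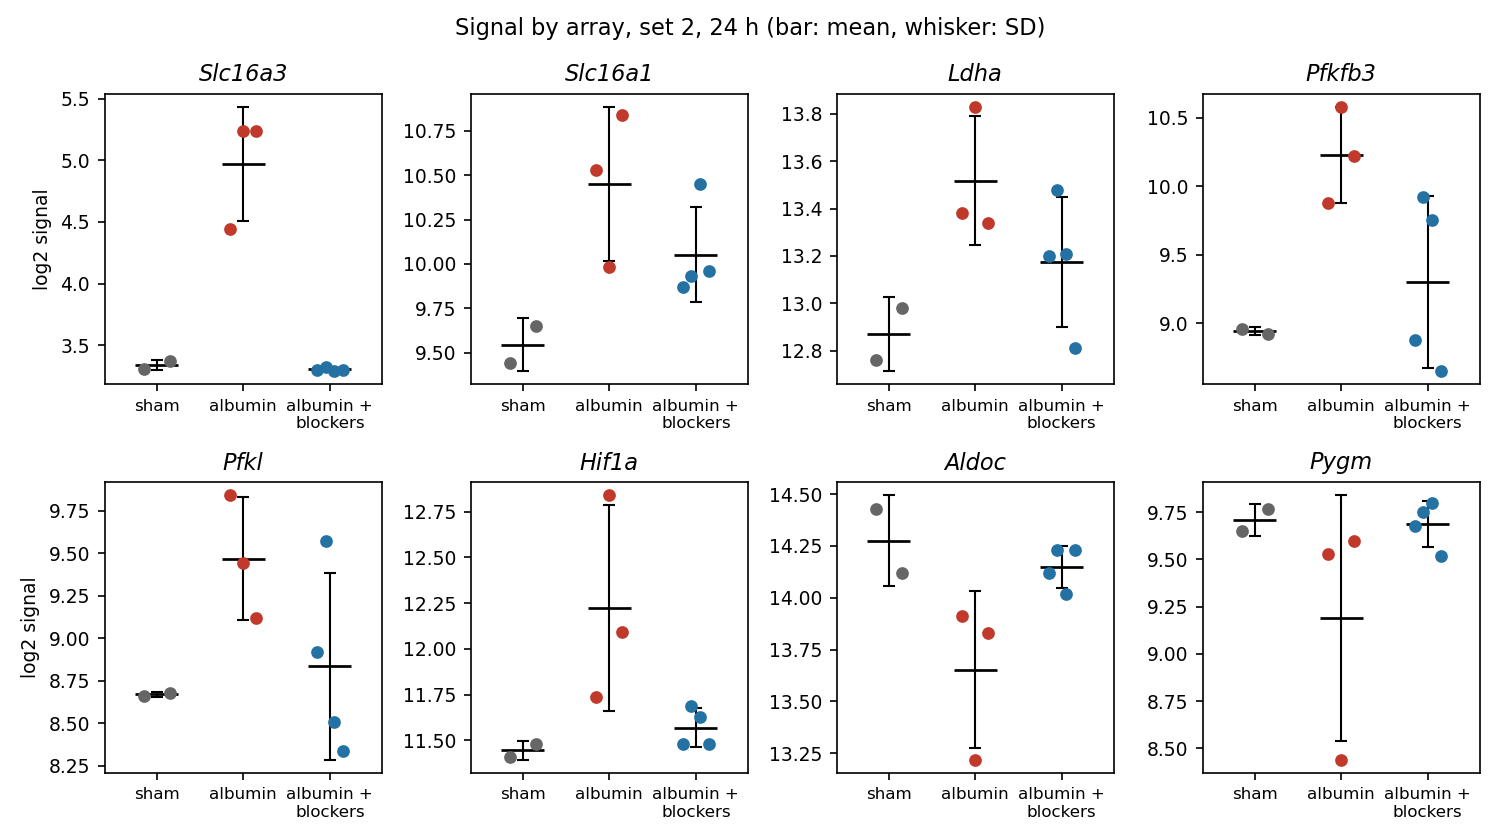
Log2 signal of 8 genes on the 9 arrays of set 2 at 24 h: points are arrays, the bar is the group mean and the whisker the SD (2 sham, 3 albumin, 4 albumin plus blockers). Slc16a3 lay at 4.44 to 5.24 with albumin and at 3.29 to 3.37 on every other array, while Pfkfb3 and Pfkl varied widely among the blocker arrays.

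The lactate dehydrogenase subunits parted. Ldha was at 13.38, 13.83 and 13.34 with albumin and 12.76 and 12.98 in sham (0.64 ± 0.22, limma adjusted p = 0.150). Ldhb was at 13.75, 13.27 and 13.73 against 14.01 and 13.80 (−0.32 ± 0.15, limma adjusted p = 0.268), or −0.17 without albumin replicate 2. Neither passed, although each subunit's albumin arrays lay on one side of sham. Of the phosphofructokinase subunits, Pfkl (liver form) was at 9.84, 9.44 and 9.12 against 8.66 and 8.68 (0.80 ± 0.35, limma adjusted p = 0.241). Pfkp (platelet form) was at 13.67, 14.14 and 13.61 against 13.38 and 13.44 (0.40 ± 0.18), or 0.23 without albumin replicate 2. Pfkm (muscle form) was lower on albumin arrays, at 12.48, 11.75 and 12.38 against 12.60 and 12.49. Most of that came from albumin replicate 2, without which the difference of −0.34 was −0.12.

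Aldoc, the aldolase of astrocytes, was at 13.91, 13.22 and 13.83 with albumin and 14.43 and 14.12 in sham. Its albumin arrays lay below both shams, by −0.62 ± 0.21 (limma adjusted p = 0.152) and by −0.40 ± 0.13 without albumin replicate 2. Astrocyte markers ran beside it: 6 of 8 were lower than in sham with a median of −0.45 and none passed, Gja1 differing by −0.69 (adjusted p = 0.0932). Gfap went the other way, by 1.27 (adjusted p = 0.0971). The mean of the 8 markers was 11.45 on albumin replicate 2, 11.99 and 11.95 on the other albumin arrays, and 11.96 and 12.18 in sham. The part of astrocyte content in the Aldoc difference was not tested. Aldoa, the ubiquitous aldolase, differed by 0.23 ± 0.11.

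In the glycogen genes, the phosphorylase genes Pygb and Pygm lay below sham by −0.67 ± 0.30 and −0.52 ± 0.31, and Gys1, the muscle-type glycogen synthase, by −0.23 ± 0.16. None passed, and albumin replicate 2 carried much of both phosphorylase differences: Pygm was at 8.44 on it and at 9.53 and 9.60 on the others, against 9.65 and 9.77 in sham. Without it Pygm differed by −0.15 and Pygb by −0.32. Slc2a3, Hk1, Gpi, the enzymes of the lower path (Tpi1, Gapdh, Pgk1, Pgam1, Eno1, Eno2) and Pdha1 differed from sham by −0.04 to 0.25 and did not pass; without albumin replicate 2 the range was −0.02 to 0.30. The kinases Pdk1, Pdk2 and Pdk3 differed by −0.27, −0.32 and 0.03, and Pdhb, the beta subunit of pyruvate dehydrogenase, by −0.19. Without albumin replicate 2 these 4 values were 0.0, −0.21, −0.07 and −0.30.

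**Figure D2:**
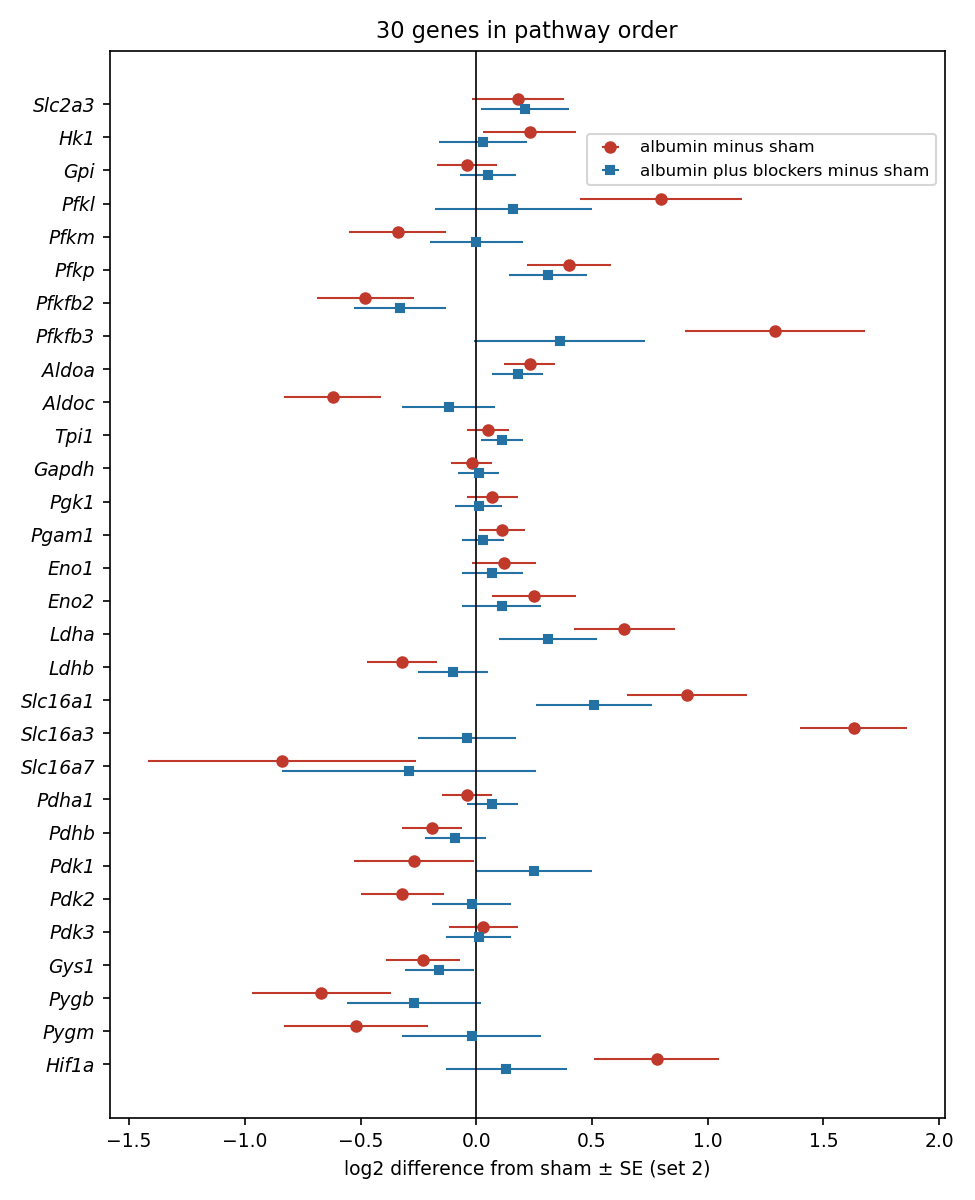
Log2 difference from sham with its moderated SE for the 30 tested genes in set 2, in pathway order; circles are albumin (n = 3 against 2), squares albumin plus blockers (n = 4 against 2). Slc16a3 reached 1.63 with albumin and −0.04 with blockers, and the genes of the lower path lay close to 0 in both.

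Because MCT4, LDHA and PFKFB3 are textbook targets of HIF-1, their promoters and that of Slc16a1 were read for the core of the hypoxia response element. The windows run from 250 bases before to 50 after the gene's start (RefSeq, GRCr8), 5′ to 3′ on the strand of the gene; capitals mark ACGTG or GCGTG on either strand, so that CACGTG counts once on each strand. Slc16a3 is shown as the gene past the threshold; the other 3 were chosen after their values were seen.
Slc16a3, chr10:106712078-106712377 (+): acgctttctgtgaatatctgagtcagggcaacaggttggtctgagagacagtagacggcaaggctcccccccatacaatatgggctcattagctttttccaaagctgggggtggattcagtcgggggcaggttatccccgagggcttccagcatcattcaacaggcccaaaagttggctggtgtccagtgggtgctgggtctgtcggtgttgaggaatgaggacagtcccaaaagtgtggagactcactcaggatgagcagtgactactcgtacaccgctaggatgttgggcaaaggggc
Slc16a1, chr2:194812410-194812709 (+): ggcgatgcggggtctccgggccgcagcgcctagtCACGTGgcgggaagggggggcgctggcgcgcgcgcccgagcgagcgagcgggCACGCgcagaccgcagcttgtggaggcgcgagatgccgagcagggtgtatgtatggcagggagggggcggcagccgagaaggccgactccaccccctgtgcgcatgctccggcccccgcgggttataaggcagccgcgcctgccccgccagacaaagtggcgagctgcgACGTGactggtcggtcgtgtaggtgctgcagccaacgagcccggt
Ldha, chr1:106507842-106508141 (+): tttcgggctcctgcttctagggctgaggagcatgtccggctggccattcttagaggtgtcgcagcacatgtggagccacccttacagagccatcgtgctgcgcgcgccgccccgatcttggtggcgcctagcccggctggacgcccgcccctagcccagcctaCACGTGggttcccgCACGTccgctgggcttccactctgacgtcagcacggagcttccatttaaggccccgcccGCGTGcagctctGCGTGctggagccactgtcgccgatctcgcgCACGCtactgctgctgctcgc
Pfkfb3, chr17:71944683-71944982 (+): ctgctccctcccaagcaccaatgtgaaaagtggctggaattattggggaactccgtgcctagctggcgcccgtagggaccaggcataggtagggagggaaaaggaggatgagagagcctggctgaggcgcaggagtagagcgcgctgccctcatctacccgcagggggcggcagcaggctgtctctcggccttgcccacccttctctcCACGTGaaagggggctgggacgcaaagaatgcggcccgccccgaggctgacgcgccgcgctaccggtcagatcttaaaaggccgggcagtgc
Ldha had 6 matches, Slc16a1 4, Pfkfb3 2 and Slc16a3 none in this window. Of the list, 30 genes had a promoter in the table (not Pgk1 and Slc2a3) and 23 of them held at least 1 match (76.7%). The share was 42.9% of all 27457 promoters and 57.8% of the 11735 promoters of genes on the array. Matches are letters in a window and not binding sites, and Aldoa, Tpi1, Hk1, Hk2, Pfkfb2 and Pkm also had none.

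With the TGF-β receptor blockers added to albumin, Slc16a3 was near the floor, as in sham. Its signal was 3.30, 3.32, 3.29 and 3.30 on the 4 blocker arrays, against 4.44 to 5.24 with albumin alone. The difference was −1.67 ± 0.19 (n = 4 against 3), and did not pass (limma adjusted p = 0.0578); the same filter applies, so a lower blocker group was fixed in advance. It passed without albumin replicate 1 (−1.94, adjusted p = 0.000372), which had the lowest albumin value, and did not pass without albumin replicate 2 (−1.54, adjusted p = 0.0778). None of the 30 genes passed, against 0.0194% of all genes (2 of 10330). Without adjustment 5 of 30 were under 0.05 (16.7%), against 16.6% of all genes.

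Hif1a was at 11.48, 11.69, 11.63 and 11.48 with blockers, below every albumin array (−0.66 ± 0.23, limma adjusted p = 0.237), or −0.35 without albumin replicate 2. Aldoc was at 14.12, 14.23, 14.02 and 14.23, above every albumin array (0.50 ± 0.17, limma adjusted p = 0.241), or 0.28 without albumin replicate 2. Both lay near sham. Pfkfb3 split among the blocker arrays: 8.88 and 8.65 on replicates 1 and 4, at the sham level, 9.92 on replicate 2, within the albumin range of 9.88 to 10.58, and 9.75 on replicate 3, just below it. Its mean difference from albumin was −0.93 ± 0.33 (limma adjusted p = 0.237). Pfkl was at 8.92, 9.57, 8.51 and 8.34, so that only replicate 2 reached the albumin range of 9.12 to 9.84 (−0.63 ± 0.30, limma adjusted p = 0.320). Pdk1, a kinase induced by HIF-1, was at 9.73, 9.64, 9.60 and 9.29 against 9.48, 8.51 and 9.15 with albumin (0.52 ± 0.22, limma adjusted p = 0.287), and at 0.25 without albumin replicate 2.

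Blocker and albumin arrays did not overlap for 4 of the 30 genes: Slc16a3 and Hif1a were below, Aldoc and Ldhb above. Over all genes, 8.71% were wholly below and 7.32% wholly above. Ldha overlapped, at 13.20, 13.48, 13.21 and 12.81 (−0.34 ± 0.18 from albumin, or −0.18 without albumin replicate 2). Slc16a1 overlapped as well, at 9.87, 9.93, 10.45 and 9.96 (−0.40 ± 0.22, or −0.63 without that array).

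Against sham, albumin plus blockers changed none of the 30 genes, and 0.0% of all genes passed (0 of 10330). Without adjustment 0 of the 30 and 444 of all genes (4.3%) were under 0.05. The genes nearest the threshold were Slc16a1 (0.51 ± 0.25), Pfkp (0.31 ± 0.17), Aldoa (0.18 ± 0.11), Pfkfb2 (−0.33 ± 0.20), Ldha (0.31 ± 0.21) and Tpi1 (0.11 ± 0.09), all at a limma adjusted p of 1.0. For Slc16a1 all 4 blocker arrays lay above both shams. That was also the case for Pfkp, Aldoa and Tpi1, while Pygb lay wholly below; the shares over all genes were 11.6% above and 8.32% below. For Slc16a3 the difference from sham was −0.04 and for Aldoc −0.12. A p above the threshold does not show that these groups are alike.

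Within an array, pairs of related enzymes were set against each other and the sham mean of the pair was taken as 0. Ldha minus Ldhb was 0.65, 0.66 and 1.59 with albumin against −0.21 and 0.21 in sham, so the A subunit gained on the B subunit on each albumin array; with blockers it was 0.04 to 0.70. Aldoa minus Aldoc was 0.58 to 1.23 with albumin and 0.14 to 0.38 with blockers, against −0.12 to 0.12 in sham. Pfkl minus Pfkm was 0.62 to 1.57 with albumin and −0.25 to 0.78 with blockers. Slc16a1 minus Slc16a7 was 0.97 to 2.34 with albumin and 0.09 to 1.62 with blockers. Eno1 minus Eno2, the non-neuronal and neuronal enolases, overlapped sham in each group. These pairs share arrays and RNA and were not tested.

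**Figure D3:**
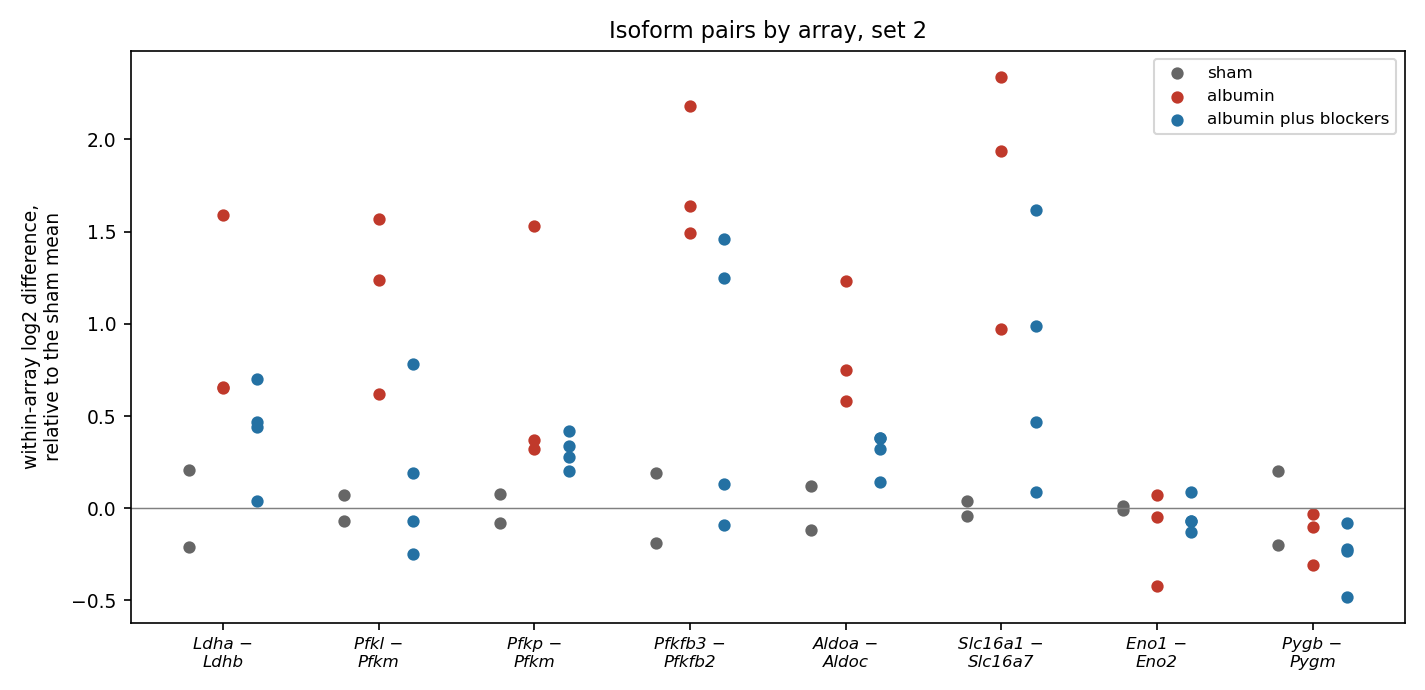
Within-array log2 difference between 2 related genes, relative to the mean of the same difference in sham, for 8 pairs on the 9 arrays of set 2; each point is an array. For Ldha minus Ldhb the albumin arrays lay at 0.65 to 1.59 and the shams at −0.21 and 0.21, whereas Eno1 minus Eno2 overlapped in all groups.

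Set 1 asked the same of each agent over time, with a single sham array. DOC against sham called none of the 29 genes, against 0.469% of all genes (47 of 10019); 5 of 29 were under an unadjusted 0.05 (17.2%), against 18.7%. Albumin called none against 0.369% (37 of 10019), with 5 of 29 under 0.05 (17.2%) against 11.9%. TGF-β1 called none against 0.0% (0 of 10019), with 3 of 29 under 0.05 (10.3%) against 7.49%. The median difference for these genes was −0.05, 0.06 and 0.03, and for all genes −0.03, −0.02 and 0.01. Because these 3 comparisons share the sham array, their values are only set side by side.

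Pygm, the muscle form of glycogen phosphorylase, was at 8.81 in sham. With DOC it was at 7.68, 7.95 and 6.82 at 7, 24 and 48 h (−1.33 ± 0.23, limma adjusted p = 0.0636). With albumin it was at 8.17, 8.28 and 7.48 (−0.83 ± 0.23, limma adjusted p = 0.211), and with TGF-β1 at 8.36, 8.31 and 7.97 (−0.60 ± 0.23, limma adjusted p = 0.593). All 9 treated arrays were below sham, lowest at 48 h within each agent. Its 3 probe sets gave −1.33, −1.77 and −1.33 for DOC. Pygb, the brain form, stayed nearer sham: Pygb minus Pygm was 0.55 to 1.38 above its sham value with DOC, 0.43 to 1.26 with albumin and 0.34 to 0.95 with TGF-β1. Set 2 did not show this: there the pair was at −0.31 to −0.03 with albumin, overlapping the shams at −0.20 and 0.20.

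Aldoc was at 13.25 in sham. It was at 12.70, 12.47 and 12.07 with DOC (−0.84 ± 0.17, limma adjusted p = 0.0929), at 12.97, 12.67 and 12.42 with albumin (−0.56 ± 0.17, limma adjusted p = 0.264), and at 13.04, 12.73 and 12.72 with TGF-β1 (−0.42 ± 0.17, limma adjusted p = 0.651). Every treated array was below sham. The astrocyte marker mean was 10.94 to 11.02 with DOC, 11.05 to 11.29 with albumin and 11.26 to 11.47 with TGF-β1, against 11.17 in sham, so it was below sham on all DOC arrays and above on all TGF-β1 arrays. Single markers went both ways, from −0.69 (S100b) to 0.42 (Gfap) with DOC. With TGF-β1 they ran from −0.47 (Fgfr3) to 1.06 (Gfap), and none passed with either agent. The part of astrocyte content in these Aldoc differences was not tested. Adding the set 2 arrays with a term for the set took Aldoc and Pygm past the threshold for DOC (adjusted p = 0.0254 and 0.0234).

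Pfkfb3 was the gene furthest above sham, which was at 6.53. With DOC it was at 8.22, 8.97 and 6.77 (1.45 ± 0.55, limma adjusted p = 0.227), so that it was back near sham at 48 h. With albumin it was at 8.09, 8.56 and 8.32 (1.79 ± 0.55, limma adjusted p = 0.260), and with TGF-β1 at 7.67, 7.35 and 6.86 (0.76 ± 0.55, limma adjusted p = 0.920). Its second probe set, mean log2 4.83, gave 0.01, 0.49 and −0.11 for the 3 agents, so the difference from sham in set 1 rests on 1 probe set.

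Ldha was at 12.32 in sham and at 12.84, 13.10 and 12.84 with DOC (0.61 ± 0.17, limma adjusted p = 0.152). It was at 12.77, 13.08 and 13.15 with albumin (0.68 ± 0.17, limma adjusted p = 0.194) and at 12.58, 12.78 and 12.84 with TGF-β1 (0.41 ± 0.17, limma adjusted p = 0.666). All 9 arrays were above sham. Ldhb was at 13.18 in sham and at 12.71 to 13.14 on the 9 treated arrays (−0.34 ± 0.17, −0.17 ± 0.17 and −0.25 ± 0.17 for DOC, albumin and TGF-β1). Together with Pfkfb3, Ldha made 2 of 29 genes above sham on all 9 arrays, and Pfkm, Aldoc, Ldhb and Pygm made 4 below. Over all genes the shares were 11.2% and 12.2%, and a low or high value of the single sham array alone can give such a side.

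Slc16a1 was at 7.79 in sham, and at 8.12, 8.61 and 7.98 with DOC. It was at 8.16, 9.0 and 8.45 with albumin (0.75 ± 0.25, limma adjusted p = 0.304) and at 7.69, 8.35 and 8.38 with TGF-β1 (0.36 ± 0.25, limma adjusted p = 0.920). The albumin array at 24 h was the highest of the 10. Slc16a3 was at 3.01 in sham, 4.13 on the albumin array at 24 h and 3.61 on the DOC array at 24 h; the other 7 treated arrays were at 3.03 to 3.06. Both transporters were thus highest with albumin at 24 h, the time sampled in set 2. Pfkm, 11.82 in sham, was at 11.42, 11.10 and 11.27 with DOC (−0.56 ± 0.18, limma adjusted p = 0.182).

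**Figure D4:**
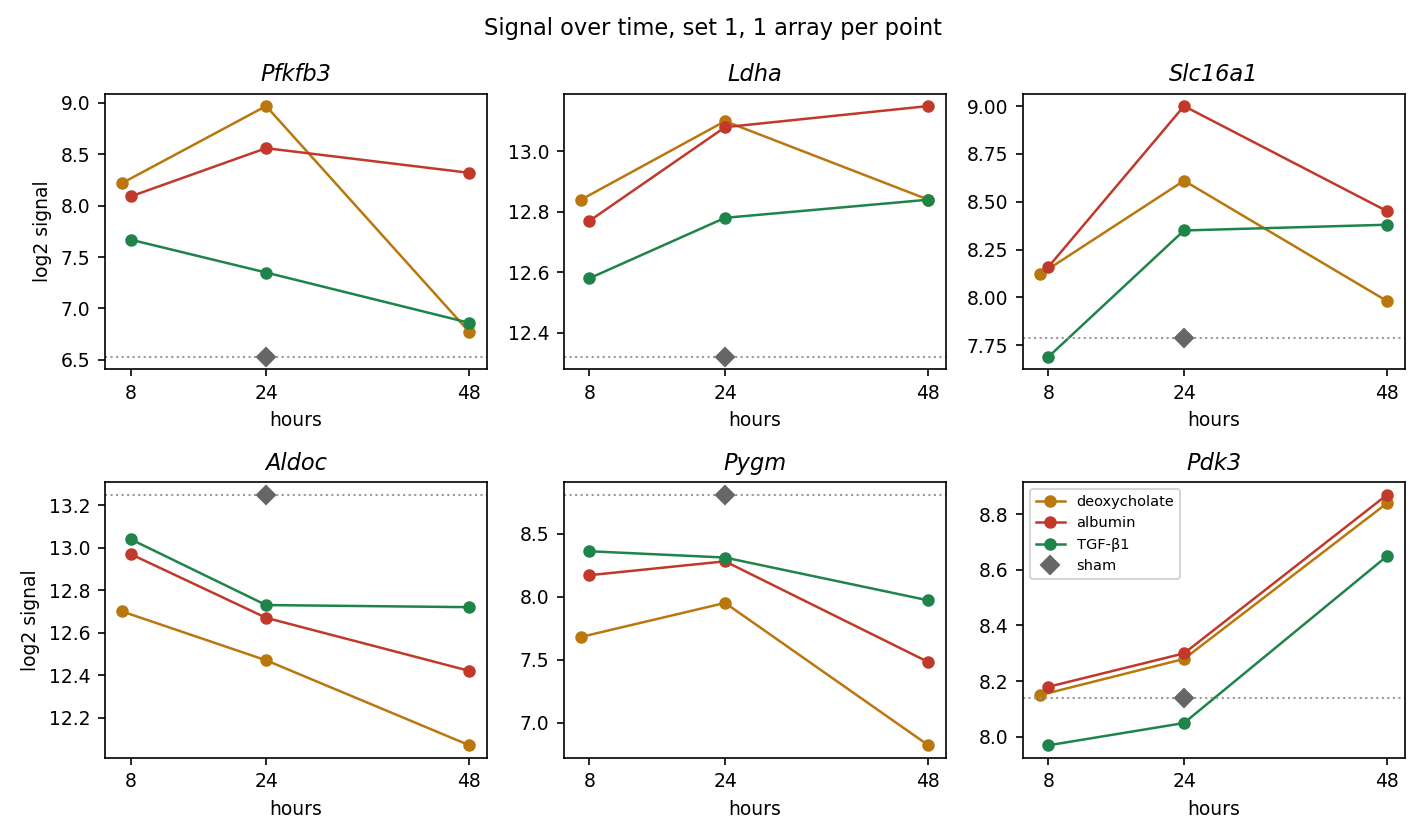
Log2 signal of 6 genes in set 1 against hours of exposure, 1 array per point; lines join the arrays of an agent and the dotted line marks the sham array of 24 h. Pfkfb3 and Ldha lay above sham and Aldoc and Pygm below on all 9 treated arrays, and Pdk3 was highest at 48 h with each agent.

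Over time, pooled over the 3 agents, Pdk3 was the gene that rose. This pyruvate dehydrogenase kinase, which is little inhibited by pyruvate, was at 8.15, 8.18 and 7.97 at 7/8 h with DOC, albumin and TGF-β1. It was at 8.28, 8.30 and 8.05 at 24 h and at 8.84, 8.87 and 8.65 at 48 h, with the sham of 24 h at 8.14. No array of 48 h overlapped an earlier one. The difference of 48 h from 7/8 h was 0.69 ± 0.10 (n = 3 against 3; limma adjusted p = 0.0148), a 1.61-fold rise. Its second probe set gave 0.45 (adjusted p = 0.0796). The call was lost without DOC 7 h, albumin 8 h, TGF-β1 8 h or TGF-β1 48 h (adjusted p = 0.0689 to 0.0838, difference 0.68 to 0.69). No other of the 29 genes passed; 1 of 29 stood, against 5.09% of all genes (510 of 10019) at this threshold, with 8 of 29 under an unadjusted 0.05 (27.6%) against 20.7%.

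Against sham over all 3 times, Pdk3 differed by 0.31 ± 0.15 with albumin (limma adjusted p = 0.474). With DOC it differed by 0.28 ± 0.15 and with TGF-β1 by 0.08 ± 0.15, and neither passed. The second probe set lay further above sham, by 0.56 with DOC, 0.72 with albumin and 0.56 with TGF-β1. Markers of several cell types moved at the same time. The microglial marker mean was 6.90 to 7.30 at 48 h and 4.92 to 5.75 before, and 6 of 8 rose from 7/8 to 48 h, among them Cd68 by 3.57. Of the astrocyte markers only Gfap passed, rising by 2.19, and the others ran from −1.02 (Slc1a2) to 0.38 (Aqp4). Of 5 endothelial and pericyte markers Rgs5, Tek and Cldn5 rose by 1.21, 0.77 and 1.10. Flt1 and Pecam1 differed by −0.38 and 0.0 and did not pass. The meningeal marker Col3a1 rose by 2.63, while Ptgds (−0.75) and Ogn (−0.51) lay lower and did not pass. The red cell genes Alas2 and Hbb fell by 1.67 and 1.09. The part of these cells in the Pdk3 rise was not tested. Aldoc and Pygm were nearest below the threshold in this contrast, at −0.50 ± 0.12 (limma adjusted p = 0.0680) and −0.65 ± 0.16 (limma adjusted p = 0.0710). Eno1 differed by 0.42 ± 0.13 and Eno2 by 0.36 ± 0.12 (limma adjusted p = 0.124 and 0.158), and Pfkl by 0.78 ± 0.30 (limma adjusted p = 0.194). Without the DOC array of 48 h, where Pfkl was at 6.10 against 7.35 and 6.92 with the other agents, the Pfkl difference was 1.23 and passed (adjusted p = 0.00781). No other array left out gave a pass. The array removed held the lowest Pfkl value of 48 h, so this pass is no support for a rise.

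From 7/8 to 24 h none of 29 genes passed, against 0.798% of all genes (80 of 10019), and 6 were under an unadjusted 0.05 (20.7%) against 14.1%. Slc16a1 differed by 0.66 ± 0.18 (limma adjusted p = 0.177) and Pfkl by 0.93 ± 0.30 (limma adjusted p = 0.244). Hif1a differed by 0.62 ± 0.23, from 11.05, 11.38 and 11.16 early to 12.26, 11.72 and 11.45. Eno2 (0.35 ± 0.12), Hk1 (0.39 ± 0.15) and Pfkfb2 (−0.38 ± 0.14) followed, at limma adjusted p values of 0.278 to 0.297. Without the DOC array of 48 h, Pfkl passed here as well (adjusted p = 0.0310), and with no other array left out. That array is of neither time compared, and the Pfkl difference stayed at 0.93.

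From 24 to 48 h none passed against 1.41% of all genes (141 of 10019), and 3 of 29 were under an unadjusted 0.05 (10.3%) against 16.3%. Pdk3 differed by 0.58 ± 0.10 (limma adjusted p = 0.0535), Pygm by −0.76 ± 0.16 (limma adjusted p = 0.0903) and Pfkfb3 by −0.98 ± 0.39 (limma adjusted p = 0.285). Pdk1 differed by 0.36, Slc16a1 by −0.38 and Gapdh by 0.24. For Pdk1 the second probe set gave 0.90 and passed (adjusted p = 0.0349). The 2 Pdk1 probe sets also differed against sham with DOC, at 0.11 and 1.09.

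The agents were then compared with each other over matched times, with 3 pairs of agents tested and p-values adjusted over all genes within each pair. Albumin against DOC called none of 29 genes, against 0.00998% of all genes (1 of 10019). The median difference was 0.18 for these genes and 0.03 for all genes. Eno2 (0.42 ± 0.12), Pygm (0.50 ± 0.16) and Aldoa (0.33 ± 0.11) had the smallest p, all at a limma adjusted p of 0.645. Unadjusted, 4 of 29 were under 0.05 (13.8%) against 7.48%.

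TGF-β1 against DOC also called none, against 0.0299% (3 of 10019); 7 of 29 were under an unadjusted 0.05, all higher with TGF-β1 (24.1%), against 20.8% of all genes. Pygm differed by 0.73 ± 0.16 (limma adjusted p = 0.102), Aldoa by 0.39 ± 0.11, Aldoc by 0.42 ± 0.12 and Pdk2, a kinase widely expressed in brain, by 0.71 ± 0.21 (limma adjusted p = 0.142 to 0.143). Pdk2 was at 8.89, 9.21 and 8.49 with DOC and 9.42, 9.46 and 9.83 with TGF-β1, without overlap. TGF-β1 against albumin called none against 0.0% (0 of 10019), and 1 of 29 was under an unadjusted 0.05 (3.45%) against 8.75%. That gene was Pfkfb3, lower with TGF-β1 by −1.03 ± 0.39 (limma adjusted p = 0.549).

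The beta-actin control, read at the 3′ and 5′ ends of the transcript, gave 3′ minus 5′ differences of 2.66 to 2.85 with DOC, 2.74 to 2.81 with albumin, 2.16 to 2.75 with TGF-β1 and 2.35 in sham. For Gapdh the same difference was −0.30 to 0.02 with DOC, −0.28 to −0.17 with albumin, −0.30 to −0.09 with TGF-β1 and −0.29 in sham. For Hk1 it was 1.34 to 1.59, 1.34 to 1.73, 0.94 to 1.62 and 0.95 in the same order. Against sham with DOC, the 3 control probe sets of Hk1 gave −0.39, −0.92 and −0.69, where the main Hk1 probe set gave −0.20. Whether RNA integrity bears on the set 1 differences was not tested. In set 2 the actin difference was 1.84 to 2.22, and the Hk1 control probe sets gave 0.23 to 0.36 for albumin, beside 0.23 for the main one.

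Albumin at 24 h was the condition that both sets held, on separate arrays with separate shams. The set 1 array minus its sham gave Pfkfb3 2.03, Slc16a1 1.22, Pfkl 1.04, Ldha 0.76, Pygm −0.53 and Aldoc −0.58. Set 2 gave 1.29, 0.91, 0.80, 0.64, −0.52 and −0.62. Without albumin replicate 2 the set 2 values were 1.11, 1.14, 0.81, 0.49, −0.15 and −0.40, so the closeness for Pygm and Aldoc rests in part on that array. Across the 29 genes tested in both sets, Pearson's r was 0.89 and Spearman's rho 0.91, and 26 had the same sign (89.7%). Across all 9842 genes r was 0.73, rho 0.59 and 70.2% had the same sign. These are correlations across genes within a few arrays, which are not independent replicates. The genes with opposite signs were Gpi, Pdk1 and Gys1.

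**Figure D5:**
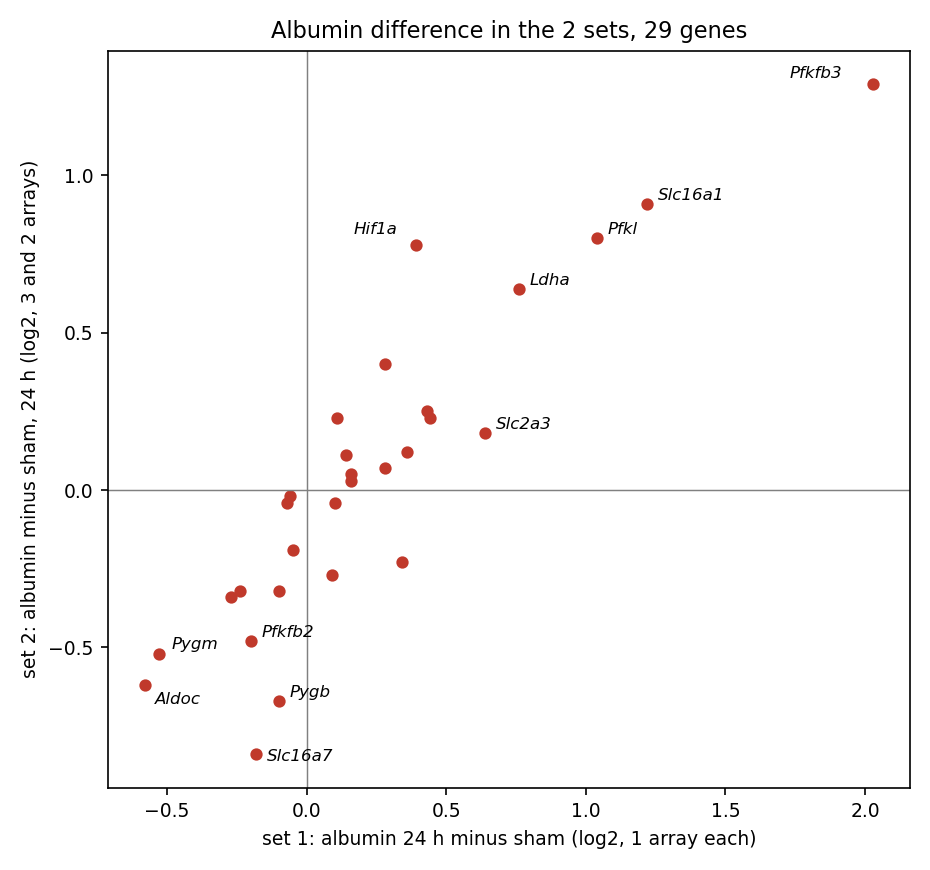
Log2 difference of albumin from sham at 24 h for 29 genes, set 1 (1 array each) on the horizontal axis and set 2 (3 against 2 arrays) on the vertical axis. Pfkfb3 was highest in both sets, followed by Slc16a1 and Pfkl, and Aldoc and Pygm were low in both. Without albumin replicate 2, the set 2 values of Aldoc and Pygm were −0.40 and −0.15.

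The other genes of the pathway were counted from 5 further lists. Of 20 other genes of glucose entry and glycolysis, 8 were tested in set 2. With albumin Slc2a6 (GLUT6, a transporter of leukocytes and brain) rose, at 7.10, 7.08 and 6.88 against 6.10 and 6.27 (0.84 ± 0.15, limma adjusted p = 0.0470). Slc2a13, the proton myo-inositol transporter, fell from 12.21 and 12.24 to 11.57, 11.72 and 11.52 (−0.62 ± 0.11, limma adjusted p = 0.0459). Leaving out any array but blocker replicate 4 ended the Slc2a6 call (adjusted p = 0.0566 to 0.322, difference 0.75 to 0.92). The Slc2a13 call ended without any array but albumin replicate 2 or blocker replicate 4 (adjusted p = 0.0633 to 0.312, difference −0.63 to −0.58). With blockers Slc2a6 was at 5.95 to 6.31 (−0.89 ± 0.12 from albumin, limma adjusted p = 0.0740). On set 1 arrays it was at 2.56 to 3.11 and was not tested.

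Of 13 genes of pyruvate and lactate handling, 9 were tested in each set, and none passed for albumin in set 2. Pdk4, the kinase that fasting and glucocorticoids induce, fell over time in set 1. It was at 8.21, 7.16 and 8.04 at 7/8 h with DOC, albumin and TGF-β1, at 6.59, 4.17 and 5.16 at 24 h, and at 5.67, 4.86 and 4.48 at 48 h. The fall was −2.50 ± 0.35 by 24 h (limma adjusted p = 0.0387) and −2.80 ± 0.35 by 48 h (limma adjusted p = 0.00785), opposite in sign to Pdk3. The fall by 48 h kept its call without each of the 9 treated arrays (adjusted p = 0.00609 to 0.0466), while that by 24 h lost it without any but DOC or albumin at 48 h (adjusted p = 0.0722 to 0.145). The sham of 24 h was at 5.19, and no sham was sampled at 7/8 h.

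Of 23 other glycogen genes, 14 were tested in set 2 and 13 in set 1. Phka1, a regulatory subunit of the phosphorylase kinase, was at 4.50, 4.85 and 4.95 at 24 h and at 6.22, 5.96 and 6.07 at 48 h. It rose by 1.32 ± 0.19 from 24 to 48 h (limma adjusted p = 0.0267), and its values at 7/8 h were 5.40 to 5.87. The sham of 24 h was at 5.91, so the treated arrays of 24 h lay below it and those of 48 h close to it. That call ended without any array but DOC at 7 h or TGF-β1 at 8 h (adjusted p = 0.0571 to 0.117). No other glycogen gene passed in the 12 comparisons. All 6 tested genes of the 7 of the pentose phosphate pathway stayed below the threshold. Pgd, the phosphogluconate dehydrogenase, was nearest in set 2 with albumin (0.46 ± 0.11, limma adjusted p = 0.0702). Without albumin replicate 2 it passed (limma adjusted p = 0.0377). Leaving out any other albumin or blocker array, it did not pass (limma adjusted p = 0.0971 to 0.127). With sham replicate 1 or 2 left out, the Pgd difference was 0.41 or 0.52. Of 21 genes of the HIF pathway and its targets, 17 were tested in set 2 and none passed for albumin. Adm, adrenomedullin, was at 5.96, 5.53 and 6.53 against 4.08 and 4.86 (1.53 ± 0.31, limma adjusted p = 0.0564). It passed without albumin replicate 2 (limma adjusted p = 0.0408) but not when another albumin or blocker array was left out (0.0696 to 0.101). With sham replicate 1 or 2 left out, the Adm difference was 1.14 or 1.92, so its size hangs on the sham array kept. The median of that list was 0.02.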

How the data were processed

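RNA of 19 cortical samples was extracted with Trizol and hybridised as biotin-labelled cRNA to Affymetrix rat genome arrays, per the labels' protocols. The authors deposited 1 signal per probe set and array, on a log2 scale. Per the submitters' processing notes these came from GCRMA, in a version not given in the sources used here. That method subtracts background, which draws dim signals towards a floor, and scales arrays by quantiles.

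Probe sets were named from the platform annotation, updated through the GRCr8 gene table. Of 31099 probe sets 20832 named 1 gene, 436 several and 9780 none, and 57 were Affymetrix controls. Of the controls, 6 named Gapdh or Hk1 and were counted with the probe sets of those genes. The main fits read Gapdh from 1 of these 6 and Hk1 from a probe set that is not a control. Linear models were fitted to all tested genes with limma 3.58.1 in R 4.3.3 (lmFit, eBayes, two-sided, Benjamini-Hochberg). Set 2 was fitted with 3 groups; set 1 with additive terms for agent and time, the lone sham array being assumed to vary like the treated arrays. SE is the moderated standard error. The number of arrays limits the precision. Tables and plots used Python 3.11.15, pandas 2.3.3, numpy 2.4.6 and matplotlib 3.10.9, and the fits were tested on simulated data.

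The genes and lists were chosen with earlier results of these data known. Values in full are given for genes that pass and, beside them, up to 6 per comparison by smallest p; other genes of the list are named by their role, and those of the further lists where they pass or are nearest. Alternatives changed the filter, the probe set, the scaling, the variance model, the arrays in the fit and, for set 2, the replicate number as a block. Replicate numbers were not taken as pairs in the main fits. Deviations of same-numbered albumin and blocker arrays correlated at 0.223, 0.219 and 0.05, and those of albumin and sham at 0.143 and 0.04. Those of blockers and sham correlated at 0.001 and −0.136. Differently numbered arrays were not compared, so these values cannot exclude pairing.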

Additional observations from a re-analysis of the deposited data

Results flagged for a closer look

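Among the 4 blocker arrays of set 2, Slc16a1 on replicate 3 was at 10.45, apart from the others at 9.87 to 9.96. Of 30 genes tested for such a gap in this group, about 1 in 20 is flagged by chance. For Gys1, albumin minus sham at 24 h was 0.34 on the set 1 array, whereas the 3 albumin arrays of set 2 were at −0.39 to −0.12 from their sham mean; this difference between the sets was not tested.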

How the results depend on the processing

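Counts of genes passing moved with the processing. For albumin against sham in set 2 the count of 1 (Slc16a3) was 0 with no filter, with a filter on the mean above 5 (Slc16a3 not tested), with only the 2 groups in the fit and with the replicate block (Slc16a3 1.57, adjusted p = 0.0777), and 3 with array weights; leaving out each array gave 0 to 1. For blockers against albumin the 0 became 1 with the second-highest probe set, 2 with array weights and 0 to 1 with each array left out. DOC against sham went from 0 to 1 with a trend and robust prior, 2 with array weights, 2 with all 19 arrays and a term for the set, and 0 to 1 with each array left out. Albumin against sham in set 1 went from 0 to 2 with array weights and 3 with all 19 arrays. For 24 against 7/8 h the 0 ranged from 0 to 1 with each array left out. For 48 against 24 h it became 1 with no filter, 1 with the second-highest probe set and 1 with array weights. For 48 against 7/8 h the 1 became 2 with a trend and robust prior, 2 with the mean of all probe sets, 2 with array weights, and 0 to 2 with each array left out. The other 5 comparisons kept a count of 0 in the alternatives run. Over the 72 results for genes given in full, 1207 of 1242 alternatives kept direction and side of the threshold, 22 newly passed and 13 no longer passed, with no reversal. The causes were not tested. Signals near the GCRMA floor, such as Slc16a3 in sham and Hk2, limit any fold. The replicate block changed no other call.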
